A study of Mus musculus with 6 samples.

Results

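The 10 genes described here, Plagl1, Peg3, Peg10, Peg13, Mest, Nnat, Impact, Zrsr1, Sgce and Usp29, are imprinted genes that mouse cells express from the chromosome inherited from the father. They were chosen by name as paternally expressed genes of separate loci, with earlier results of these data known. All 10 were found among the 24421 genes of the deposited expression table. RNA from E14 mouse embryonic stem cells was sequenced in 2 libraries of Pml-/- cells (Pml knockout) and 2 libraries of wild type cells, and every library came from cells exposed to 10 µM paraquat, a redox cycler, for 15 h. Both genotypes were grown with CHIR99021 (a GSK3 inhibitor), PD0325901 (a MEK inhibitor) and leukemia inhibitory factor, and no untreated RNA library was among the samples, so the comparison asks how the genotypes differ under paraquat. The remaining 2 of the 6 samples, chromatin labelled by a PML fusion enzyme, were not analysed here. The labels do not say how the Pml gene was disrupted, how many knockout clones were used, or if the 2 libraries of each genotype are separate cultures. P-values therefore cover only the spread between these libraries, which may be technical.

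In genomic imprinting, methylation set down in the egg or sperm marks a gene by parent of origin and is kept through the cell divisions of the embryo. Most paternally expressed genes have a promoter that is methylated on the maternal copy, and ZFP57, a zinc finger protein that recruits KAP1 (Trim28) and SETDB1, binds the methylated hexamer TGCCGC and preserves that mark in embryonic stem cells. Many genes of this group act on fetal growth, the placenta or the brain. Embryonic stem cell lines are known to gain or lose imprints in culture. Neither DNA methylation nor the parental origin of a transcript was measured here, so every level is a total over both alleles.

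The promoters of 5 of these genes are shown because they hold the hexamer or start back to back. All windows run from 250 bases before to 50 bases after a RefSeq start site (GRCm38.p6, the mm10 assembly), and windows were found for 6 of the 10 genes. Capitals mark TGCCGC or its reverse complement, which did not overlap each other. The windows of Plagl1 (chr10:13090582-13090881, plus strand), Nnat (chr2:157559828-157560127, plus strand) and Mest (chr6:30737800-30738099, plus strand) held 1, 1 and 2 hexamers, read on both strands.
Plagl1: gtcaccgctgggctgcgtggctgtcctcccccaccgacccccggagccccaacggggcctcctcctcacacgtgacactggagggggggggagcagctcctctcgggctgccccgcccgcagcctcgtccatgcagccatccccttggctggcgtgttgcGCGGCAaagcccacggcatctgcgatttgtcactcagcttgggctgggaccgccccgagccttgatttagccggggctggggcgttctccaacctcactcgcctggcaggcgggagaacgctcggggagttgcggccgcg
Nnat: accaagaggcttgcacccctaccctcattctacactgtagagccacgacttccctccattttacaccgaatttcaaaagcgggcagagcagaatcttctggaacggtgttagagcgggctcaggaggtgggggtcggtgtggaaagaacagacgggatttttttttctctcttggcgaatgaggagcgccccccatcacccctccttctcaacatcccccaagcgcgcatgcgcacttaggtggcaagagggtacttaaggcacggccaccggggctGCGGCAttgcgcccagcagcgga
Mest: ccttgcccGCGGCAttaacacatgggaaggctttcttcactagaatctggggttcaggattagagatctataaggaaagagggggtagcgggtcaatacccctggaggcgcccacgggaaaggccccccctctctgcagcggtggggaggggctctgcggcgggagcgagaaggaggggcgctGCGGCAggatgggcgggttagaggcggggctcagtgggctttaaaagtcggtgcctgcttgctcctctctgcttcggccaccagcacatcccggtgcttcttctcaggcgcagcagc
Of all 32851 promoter windows of that length, 11.6% held the hexamer. The Plagl1 window also had 26 CpG dinucleotides, against a median of 7 over all windows, and those of Nnat and Mest had 17 each. The hexamer itself holds a CpG, so the share over all windows is not matched to windows this rich in CpG. Enrichment of the hexamer was not tested. The hexamer was not found in the windows of Peg3, Usp29 and Zrsr1, nor in an upstream alternative start of Mest. The core AANATGGC, recognised by the zinc finger protein YY1, was found on neither strand in any window of these genes, against 6.05% of all windows. At that share so few windows can easily hold none. Bases outside the windows were not searched, so YY1 sites elsewhere in these loci, that of Peg3 included, were not assessed. The window of Peg3 (chr7:6730370-6730669, minus strand) is shown for its arrangement. The start site used for it lies 164 bases from that used for Usp29, which is transcribed in the opposite direction. Capitals here mark the 163 bases between these start sites. The gene intervals given below lie closer, with 96 bases between them, so some capitals fall inside those intervals.
Peg3: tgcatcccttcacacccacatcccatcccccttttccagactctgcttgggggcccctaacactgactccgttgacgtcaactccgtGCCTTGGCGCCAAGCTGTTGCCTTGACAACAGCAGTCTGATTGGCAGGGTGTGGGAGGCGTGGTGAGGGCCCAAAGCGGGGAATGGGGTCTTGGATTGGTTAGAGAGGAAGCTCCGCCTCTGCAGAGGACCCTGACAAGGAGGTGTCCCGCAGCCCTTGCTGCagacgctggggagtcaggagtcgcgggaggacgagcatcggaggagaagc

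Library depth was 38150397 and 43715807 reads in the Pml knockout, against 31384794 and 44130093 reads in wild type. Levels are reads per 1000000 reads counted in genes (CPM), as deposited. Pml itself had 78.7 and 89.7 CPM in the knockout, against 238 and 228 CPM in wild type. The 4 tested genes of the Y chromosome, Ddx3y, Eif2s3y, Uty and Uba1y, were all lower in the knockout (median log2 fold change -4.15), so the genotypes differ in more than Pml. All 8 stem cell markers examined, Pou5f1 and Nanog among them, were read in every library, with summed levels of 6120 and 6168 CPM in the knockout and 6213 and 6143 CPM in wild type. The label entry on the library kit of wild-type library 2 names a DNA kit, whereas those of the other RNA libraries name an RNA kit, and results are also given without that library.

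Most of these imprinted genes were lower in the knockout, by amounts that varied between genes. Peg13 kept 10.5% of its wild-type level and Plagl1 36.1%, Nnat kept 49.1%, and Impact, Peg10, Mest, Peg3 and Zrsr1 kept 69.3 to 76.0%. Sgce and Usp29 were also lower in both knockout libraries than in either wild-type library, without passing a test. Testing covered the 12710 genes that averaged 1 CPM or more, of which 439 were called lower in the knockout (3.45%) and 248 higher (1.95%) by limma on log2(CPM + 1) with Benjamini-Hochberg adjustment over all tested genes at 0.05. These counts were 290 and 133 without knockout library 2 and 303 and 143 without wild-type library 1. Of the 10 imprinted genes 9 were tested, 8 were called lower and 0 higher, and all 8 calls held without any 1 of the 4 libraries (highest limma adjusted p = 0.0296, for Nnat). The median log2 fold change (knockout minus wild type) was -0.51 over the 9 tested, against 0.00 over all tested genes. Because the genes were chosen with earlier results of these data known, this count and median are descriptions only. Peg13, among those called, reached the minimum level for testing through its wild-type libraries. The libraries of the genotypes did not overlap for any of the 10 genes, and 25.5% of all tested genes had both knockout libraries below both wild-type libraries. In bulk RNA, fewer cells expressing a gene and less RNA per cell cannot be told apart.

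**Figure D1:**
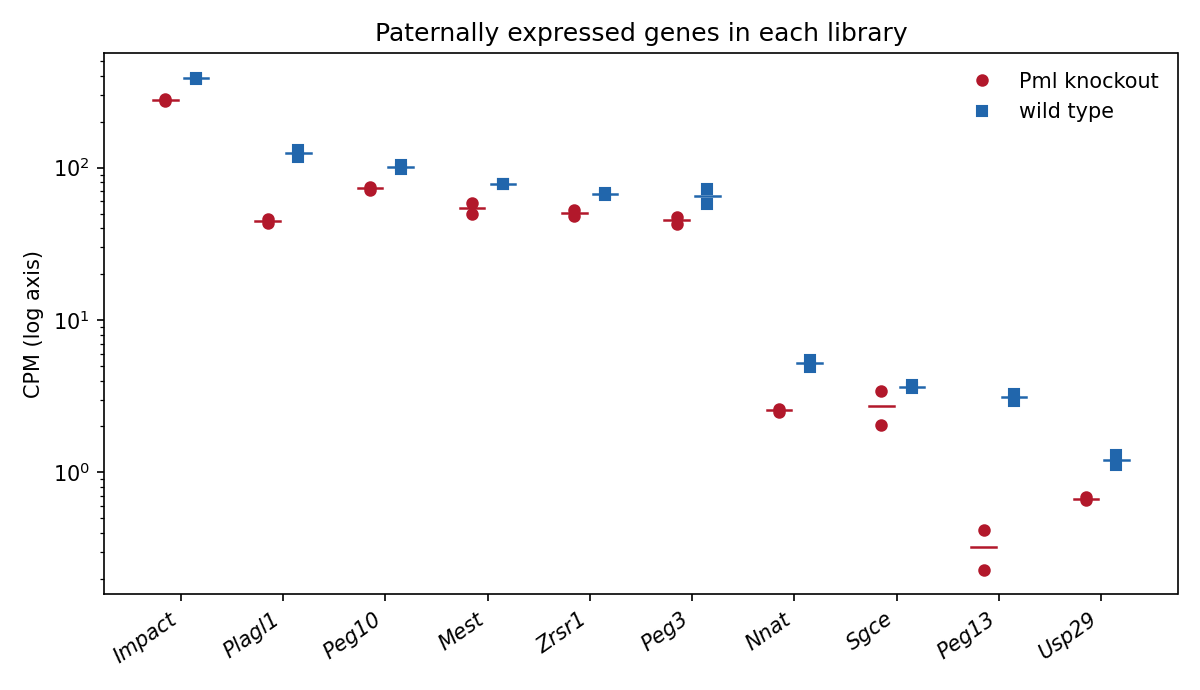
Level of each gene in each library, as deposited CPM on a log axis, with Pml knockout libraries as red circles and wild-type libraries as blue squares (n = 2 each) and a bar at each mean. For every gene both circles lie below both squares, and the gap is widest for Peg13 and Plagl1.

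Plagl1 encodes a zinc finger transcription factor that restrains growth and, in the mouse, regulates other imprinted genes. It lies on chromosome 10 from 13090832 to 13131694 (mm10, as are all positions below). Its level was 43.5 and 46.3 CPM in the knockout libraries, against 118 and 131 CPM in the wild-type libraries. The 2 libraries of each genotype lay close together and the genotypes stood far apart. The mean was 44.9 ± 2.01 CPM in the knockout and 124 ± 8.999 CPM in wild type (SD, n = 2 each), which is 2.77-fold lower. The log2 fold change was -1.45 (SE 0.063, limma adjusted p = 8.98e-10), and 16 of 12710 tested genes, Plagl1 included, had a change at least as far below 0. It was read 1659 and 2025 times in the knockout libraries. The level from reads summed per genotype was 35.8% of wild type (exact 95% interval 34.5 to 37.2%, Clopper-Pearson). Such intervals cover counting error only.

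Hymai, a noncoding RNA whose interval lies inside that of Plagl1, had at most 0.0906 CPM in any library. The tested neighbours Phactr2 and Sf3b5 stood at 11.9 and 10.1 CPM and at 104 and 110 CPM in the knockout. In wild type Phactr2 stood at 10.6 CPM in both libraries and Sf3b5 at 113 and 112 CPM, and neither passed (limma adjusted p = 0.885 and 0.508). The knockout and wild-type libraries overlapped for Phactr2, and for Sf3b5 the gap between them was small. Of genes with ordinary symbols, those whose pattern over the 4 libraries was most like that of Plagl1, by Euclidean distance of mean-centred log2(CPM + 1) values, were Xlr4a (0.133), Xlr4b (0.137), Pml (0.165), Magea4 (0.187) and Cyp2b23 (0.212). Xlr4a and Xlr4b are members of a multi-copy family that share sequence, so the level of each is uncertain. In the knockout Xlr4a had 0.210 and 0.229 CPM, Xlr4b 0.315 and 0.275 CPM and Magea4 0.419 and 0.275 CPM, all near the floor. They kept 9.34, 12.4 and 13.9% of the wild-type level, against 36.1% for Plagl1. Their likeness to Plagl1 therefore holds on the log2(CPM + 1) scale, which understates changes of low genes.

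Peg13 is a noncoding RNA of chromosome 15 (72805602 to 72810324) that lies inside Trappc9, which encodes a subunit of a vesicle trafficking complex. It was read 16 and 10 times in the knockout libraries, against 102 and 130 times in the wild-type libraries. As CPM these were 0.419 and 0.229 in the knockout, against 3.25 and 2.95 in wild type, with means of 0.324 ± 0.135 and 3.10 ± 0.215 CPM (SD, n = 2 each). The knockout libraries were far below the wild-type libraries, in plain CPM 9.56-fold, the widest gap of the 10 genes. The log2 fold change on log2(CPM + 1) was -1.63 (SE 0.18, limma adjusted p = 4.21e-05), a scale that understates changes of low genes, and from summed reads the knockout kept 10.3% of wild type (exact 95% interval 6.61 to 15.5%). Peg13 reached the minimum mean level for testing through its wild-type libraries.

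Trappc9, in contrast, stood at 43.6 and 43.2 CPM in the knockout, against 44.0 and 42.5 CPM in wild type. The libraries of the genotypes overlapped, and the log2 fold change was 0.00 with a 95% interval of -0.14 to 0.14 (limma adjusted p = 0.988). The log2 ratio of Peg13 reads to Trappc9 reads was -6.70 and -7.56 in the knockout libraries, against -3.76 and -3.85 in the wild-type libraries. No source used here states if counting used strand or how reads in overlapping genes were handled, which leaves the level of a gene inside another uncertain in absolute terms. Kcnk9, a potassium channel gene of the same domain, had 0 reads in all 4 libraries.

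Nnat, on chromosome 2 from 157560078 to 157562525, encodes neuronatin, a small membrane protein of the endoplasmic reticulum that is abundant in developing brain. It was read 99 and 109 times in the knockout libraries, which is 2.59 and 2.49 CPM, against 171 and 217 times in wild type, which is 5.45 and 4.92 CPM. Both knockout libraries were below both wild-type libraries, with little spread within a genotype. The means were 2.54 ± 0.0719 CPM in the knockout and 5.18 ± 0.376 CPM in wild type (SD, n = 2 each), 2.04-fold lower (log2 fold change -0.80, SE 0.14, limma adjusted p = 0.00387). Nnat lies inside Blcap, which stood at 38.5 and 41.5 CPM in the knockout, against 35.9 and 33.4 CPM in wild type. Blcap did not pass, and its interval lay above 0, opposite in direction to Nnat (log2 fold change 0.20, 95% interval 0.04 to 0.35, limma adjusted p = 0.139). Ctnnbl1, another gene beside Nnat, had 87.7 and 84.9 CPM in the knockout, against 86.8 and 85.1 CPM in wild type (limma adjusted p = 0.969).

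The 5 called genes with the smaller differences came from 5 loci. They were grouped by the size of these differences, so their nearness in size is not a separate result. Their log2 fold changes ran from -0.52 to -0.39, and their 95% intervals had the range -0.52 to -0.37 in common. The interval of Plagl1 (-1.58 to -1.32) and that of Peg13 (-2.01 to -1.26) lay wholly below that range, and that of Nnat (-1.11 to -0.50) reached into it. The median log2 fold change of all genes called lower was -0.40. Differences between genes were not tested beyond these intervals.

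**Figure D2:**
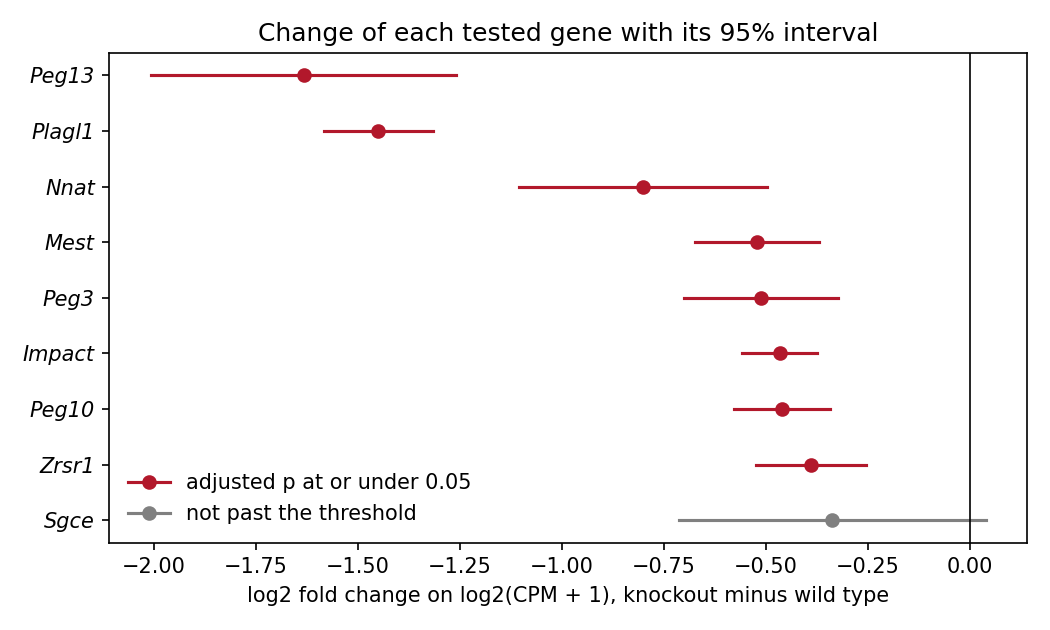
Log2 fold change of each of the 9 tested genes (knockout minus wild type, on log2(CPM + 1)), as points with limma 95% intervals. Peg13 and Plagl1 lie at -1.63 and -1.45, Nnat at -0.80, and the other 6 between -0.52 and -0.34, of which Sgce, in grey, did not pass.

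Impact, on chromosome 18 from 12954690 to 12992950, encodes a protein that binds GCN1 and so limits the activation of the stress kinase GCN2. Its level was 274 and 284 CPM in the knockout, against 391 and 381 CPM in wild type. The genotypes stood apart by far more than their libraries differed, with means of 279 ± 6.70 CPM in the knockout and 386 ± 6.51 CPM in wild type (SD, n = 2 each). The log2 fold change was -0.47 (SE 0.043, limma adjusted p = 8.89e-06). Osbpl1a, an oxysterol-binding protein gene 12818 bases away, stood at 84.0 and 86.2 CPM in the knockout, against 86.3 and 84.7 CPM in wild type (limma adjusted p = 0.966), with the genotypes interleaved.

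Peg10 is derived from a retrotransposon and is needed for the mouse placenta. It lies on chromosome 6 from 4747306 to 4760517. It had 71.5 and 74.5 CPM in the knockout, against 98.4 and 103 CPM in wild type. The knockout libraries were both lower, and the log2 fold change was -0.46 (SE 0.055, limma adjusted p = 0.000128). Sgce, which encodes the membrane protein epsilon-sarcoglycan, lies from 4674350 to 4747204, and 101 bases separate its interval from that of Peg10. It was read 78 and 150 times in the knockout libraries, which is 2.04 and 3.43 CPM, against 112 and 164 times in wild type, which is 3.57 and 3.72 CPM. Knockout library 1 was the low one, and knockout library 2 came close to wild type. The means were 2.74 ± 0.981 CPM in the knockout and 3.64 ± 0.104 CPM in wild type (SD, n = 2 each). The log2 fold change of -0.34 did not pass (95% interval -0.71 to 0.04, limma adjusted p = 0.318), an interval that holds both 0 and the change of Peg10. The log2 ratio of Peg10 to Sgce reads was 5.13 and 4.44 in the knockout, against 4.78 and 4.80 in wild type, so that the wild-type libraries lay between the knockout libraries (exact permutation test, p = 1, where 2 libraries against 2 cannot give less than 0.333).

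Around Peg10 and Sgce, Casd1, a sialic acid acetylation gene, had 20.7 and 23.1 CPM in the knockout and 20.6 and 19.8 CPM in wild type (limma adjusted p = 0.546). The maternally expressed Ppp1r9a had 11.04 and 11.96 CPM in the knockout and 13.6 and 12.7 CPM in wild type (limma adjusted p = 0.387). Pon2 and Pon3, paraoxonase family genes, had overlapping libraries and did not pass either (limma adjusted p = 0.837 and 0.865). Calcr, Asb4, Tfpi2 and Pon1 were below 1 CPM in every library and were not tested.

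Mest, also on chromosome 6 (30733506 to 30748466), encodes an enzyme of the alpha/beta hydrolase fold that is abundant in embryonic mesoderm. It had 49.9 and 59.0 CPM in the knockout, against 78.3 and 78.5 CPM in wild type. The wild-type libraries were nearly equal and both knockout libraries were below them (log2 fold change -0.52, SE 0.071, limma adjusted p = 0.000463). Copg2, a vesicle coat gene whose interval shares 913 bases with that of Mest, had 88.5 and 86.6 CPM in the knockout, against 83.6 and 87.7 CPM in wild type (log2 fold change 0.03, 95% interval -0.08 to 0.15, limma adjusted p = 0.817). Its libraries overlapped between the genotypes. Cep41, a nearby gene, had 16.8 and 16.6 CPM in the knockout, against 19.6 and 16.8 CPM in wild type (limma adjusted p = 0.589).

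Zrsr1, on chromosome 11 from 22972005 to 22976496, is a retrogene for a splicing factor related to U2AF1 and lies inside Commd1. It had 48.5 and 52.9 CPM in the knockout, against 67.7 and 65.7 CPM in wild type, without overlap (log2 fold change -0.39, SE 0.063, limma adjusted p = 0.00199). Commd1, a copper and NF-kappaB regulator, had 30.3 and 32.9 CPM in the knockout, against 32.6 and 31.7 CPM in wild type, and its libraries overlapped (log2 fold change -0.02, 95% interval -0.19 to 0.14, limma adjusted p = 0.900). The log2 ratio of Zrsr1 to Commd1 reads was 0.68 in both knockout libraries and 1.05 in both wild-type libraries.

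Peg3 encodes a zinc finger protein that in the mouse affects growth and maternal behaviour, and it lies on chromosome 7 from 6703892 to 6730462, beside the promoter shown above. It had 47.7 and 42.6 CPM in the knockout, against 57.8 and 72.5 CPM in wild type. The wild-type libraries differed from each other more than those of most of these genes, yet both were above the knockout libraries. On the log2 scale Peg3 differed by -0.51 (SE 0.089, limma adjusted p = 0.00322). Usp29, a deubiquitinase gene that starts on the other side of that promoter (6730559 to 6967220), was read 25 and 30 times in the knockout libraries, against 41 and 49 times in wild type. As CPM these were 0.655 and 0.686 in the knockout, against 1.31 and 1.11 in wild type, both knockout libraries being lower. Its mean over the 4 libraries was under 1 CPM, so it was not tested, and from summed reads the knockout held 56.4% of the wild-type level (exact 95% interval 39.6 to 79.7%). The log2 ratio of Peg3 to Usp29 reads was 6.19 and 5.96 in the knockout, against 5.47 and 6.03 in wild type, and the genotypes overlapped (exact permutation test, p = 0.667). The maternally expressed Zim1, next to Peg3, had 0.996 and 0.755 CPM in the knockout and 0.828 and 0.884 CPM in wild type, also under the minimum for testing.

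The authors' deposited table, whose fold changes run wild type over knockout, gave a false discovery rate under 0.05 to 8 of the 10 genes. All 8 were lower in the knockout, where 2.38% of its 24421 genes were called in that direction. Those 24421 include 5660 genes without reads in any library, which could not be called. The deposited log2 fold change in the authors' deposited table was 3.26 for Peg13, 1.47 for Plagl1 and 1.02 for Nnat, and the genes not called were Sgce (rate 0.561) and Usp29 (rate 0.104). On the recovered whole reads edgeR, which tested all 10, called 8 lower (2.71% of its tested genes were) and so did DESeq2 (2.27%). Limma with no filter on low levels also called 8 lower (1.17%), and Sgce and Usp29 passed under none of these.

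Of 31 genes listed as hosts or neighbours 30 matched the table and 16 were tested, of which 0 passed by limma. Of the same list 0 passed by edgeR and 0 by DESeq2. An unadjusted limma p under 0.05 was found for 2 of the 16, Ago2 and Blcap, both higher in the knockout. Ago2, which encodes a core protein of RNA silencing, had 276 and 277 CPM in the knockout, against 214 and 264 CPM in wild type (limma adjusted p = 0.0870), and it passed without wild-type library 2. The median log2 fold change of the 16 was 0.00, with a range of -0.18 to 0.22. Blcap, Ago2, Casd1 and B3gnt2 had both knockout libraries above both wild-type libraries, and Sf3b5, Ppp1r9a and Chrac1 had both below. Of all 12710 tested genes, 3025 had both above and 3240 had both below, so such a pattern is common. Within 1000000 bases of the 8 loci, 95 other genes were tested, with 4 called lower and 1 higher. The median over these 95 was -0.01. On the 7 chromosomes that carry the imprinted genes, the other tested genes had medians between -0.02 and 0.02, and 2.06 to 3.74% of them were called lower.

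Of the 4 nearby genes called lower, 3 lay around Peg3 and Usp29, where 15 others were tested. Aurkc, an Aurora kinase of germ cells, had 4.95 and 4.83 CPM in the knockout, against 8.76 and 7.999 CPM in wild type (limma adjusted p = 0.00518). The zinc finger gene Zfp28 had 9.49 and 9.97 CPM in the knockout, against 14.7 and 13.9 CPM in wild type (limma adjusted p = 0.00935). Zfp773, another zinc finger gene, had 1.68 and 1.53 CPM in the knockout, against 3.60 and 2.90 CPM in wild type (limma adjusted p = 0.0186). The log2 fold changes of Aurkc, Zfp28 and Zfp773 were -0.67, -0.51 and -0.70, against -0.51 for Peg3. The call of Zfp773 ended without wild-type library 1 or either knockout library (highest limma adjusted p = 0.114). These genes and the next were chosen after their values were seen. The other calls were Ptp4a3, a phosphatase gene of the Peg13 region, at 67.0 and 68.0 CPM in the knockout and 84.1 and 76.2 CPM in wild type (limma adjusted p = 0.0290, and up to 0.316 without wild-type library 1 or either knockout library), and Myl9, a myosin light chain gene of the Nnat region, at 11.1 and 11.2 CPM in the knockout and 7.36 and 6.44 CPM in wild type (limma adjusted p = 0.00541).

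**Figure D3:**
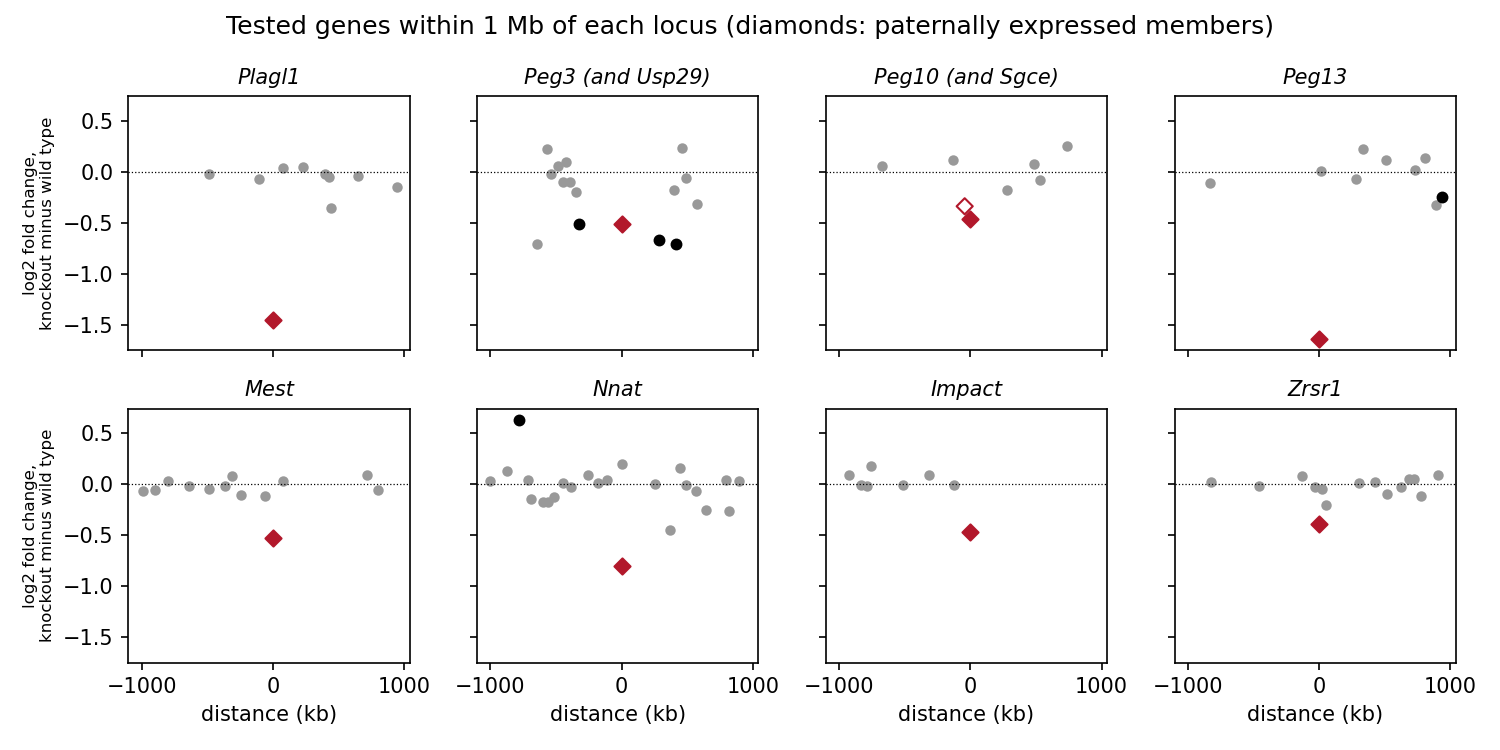
Log2 fold change (knockout minus wild type, on log2(CPM + 1)) of each tested gene within 1000000 bases of each of the 8 loci, by distance in kb between gene midpoints. Red diamonds are the imprinted genes (open for Sgce, which did not pass), black circles other genes past the threshold and grey circles the rest. Most circles lie near 0 while the diamonds lie below. Around Peg3 (-0.51), Nlrp4c (-0.71, not past the threshold), Zfp773 (-0.70) and Aurkc (-0.67) lie lower than Peg3 itself.

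Among 20 other paternally expressed imprinted genes in the table, 15 were tested, 4 were lower and 2 higher, with a median of -0.20. Zdbf2 fell to 102 and 93.9 CPM in the knockout, against 152 and 147 CPM in wild type (change on the log2 scale -0.61, limma adjusted p = 5.73e-06). Peg12, of the Prader-Willi region, fell to 1.44 and 2.01 CPM, against 4.68 and 5.19 CPM in wild type (log2 fold change -1.13, limma adjusted p = 0.000601), and the noncoding Kcnq1ot1 and the ligand gene Dlk1 were the other genes that fell. Sfmbt2, a Polycomb-related gene needed for the mouse placenta, rose to 67.7 and 62.3 CPM, against 45.5 and 48.8 CPM in wild type (log2 fold change 0.46, limma adjusted p = 0.000754), and the deiodinase gene Dio3 rose as well. The calls of Dlk1 and Dio3 ended without either knockout library, and that of Dio3 also without wild-type library 1 (highest limma adjusted p = 0.0634 for Dlk1 and 0.123 for Dio3). Slc38a4, an amino acid transporter gene, stood at 186 and 200 CPM in the knockout and 198 and 189 CPM in wild type (limma adjusted p = 0.981). Snrpn and Snurf, which overlap, and Rasgrf1 were listed at 0 in all libraries.

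Maternally expressed imprinted genes moved in both directions, with 19 of 27 tested, 5 lower and 3 higher, and a median of 0.04. Grb10, which encodes an inhibitory adaptor of insulin receptor signalling, rose to 324 and 341 CPM in the knockout, against 185 and 175 CPM in wild type (log2 fold change 0.88, limma adjusted p = 1.49e-08). Phlda2, which limits placental growth, rose to 10.9 and 11.3 CPM, against 6.40 and 5.94 CPM in wild type (limma adjusted p = 0.00132). Igf2r, the receptor that clears IGF2, fell to 115 and 102 CPM, against 138 and 168 CPM in wild type (limma adjusted p = 0.00141), and H19, Rian and Mirg, all noncoding, also fell. Of 12 tested genes that have been tied to Plagl1 as an imprinted gene network in the mouse, 4 were lower (H19, Igf2r, Dlk1 and Meg3) and 2 higher (Grb10 and Cdkn1c), while 6 did not pass. The call of Meg3 ended without knockout library 2 (limma adjusted p = 0.185), and that of Cdkn1c without wild-type library 2 or either knockout library (highest limma adjusted p = 0.162).

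**Figure D4:**
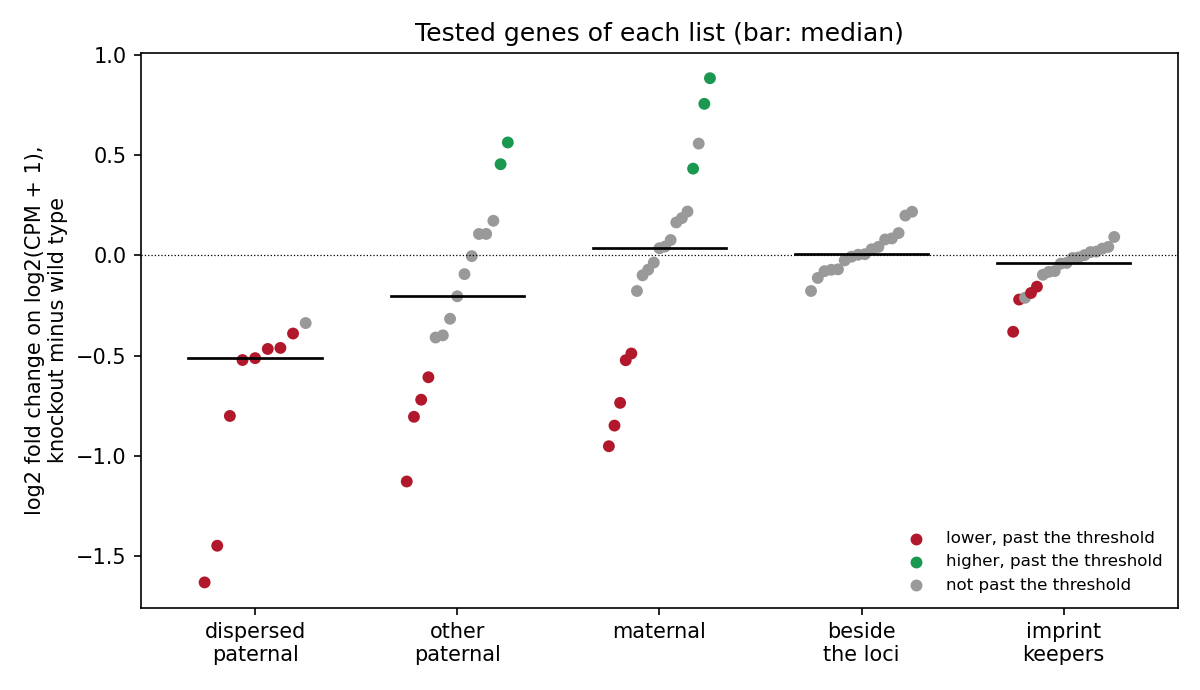
Log2 fold change (knockout minus wild type, on log2(CPM + 1)) of every tested gene in 5 lists, with black bars at the medians of -0.51, -0.20, 0.04, 0.00 and -0.04 from left to right. Red points passed the threshold as lower, green points as higher and grey points did not pass.

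Of the 18 genes that set or keep imprints, all tested, 4 were lower and 0 higher. Zfp57 stood at 437 and 372 CPM in the knockout, against 486 and 372 CPM in wild type, and its libraries overlapped (limma adjusted p = 0.707). It passed as lower without wild-type library 2 (log2 fold change -0.27, limma adjusted p = 0.00147), whereas without wild-type library 1 or knockout library 2 its log2 fold change was above 0 (up to 0.11). Trim28 had 2875 and 2736 CPM in the knockout, against 2797 and 2808 CPM in wild type (limma adjusted p = 0.993). Setdb1, Yy1, Ctcf and Zfp445 did not pass either. The genes that passed encode methylation enzymes or their partners, but not every such gene on the list passed. Dnmt3b had 162 and 165 CPM in the knockout, against 171 and 166 CPM in wild type (limma adjusted p = 0.695). Hells, with both knockout libraries above both wild-type libraries, did not pass (limma adjusted p = 0.276), nor did Tet1 and Tet2 (limma adjusted p = 0.868 and 0.376). Dnmt3l had 136 and 131 CPM in the knockout, against 195 and 155 CPM in wild type (limma adjusted p = 0.00859), and wild-type library 1 was the high one. The maintenance factors Uhrf1 and Dnmt1 had 580 and 565 CPM and 436 and 424 CPM in the knockout. In wild type they had 648 and 657 CPM and 480 and 479 CPM (limma adjusted p = 0.0143 for Uhrf1 and 0.0418 for Dnmt1). Dnmt3a had 134 and 131 CPM in the knockout, against 160 and 148 CPM in wild type (limma adjusted p = 0.0212). None of these 4 calls held without wild-type library 1; those of Uhrf1 and Dnmt1 also ended without wild-type library 2, and those of Dnmt3a and Dnmt1 without knockout library 2 (highest limma adjusted p = 0.250, for Dnmt3a).

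Several imprinted genes are abundant in mesoderm, brain or placenta, so markers of other cell types were read beside them. The 8 fibroblast markers summed to 15.7 and 13.7 CPM in the knockout and 13.9 and 13.7 CPM in wild type, with Dcn at 0 throughout, and 0 of 3 tested passed. The 8 mesoderm markers summed to 7.23 and 6.82 CPM in the knockout and 7.42 and 7.14 CPM in wild type, and 0 of 2 tested passed. The 8 primitive endoderm markers summed to 108 and 98.5 CPM in the knockout and 99.9 and 115 CPM in wild type. Lama1 made up most of these sums, and 0 of 4 tested passed. The 8 neural markers summed to 294 and 301 CPM in the knockout, below the 323 and 333 CPM in wild type. Tubb3 made up most of these sums. Of 6 tested, 2 passed as lower, Nes and Sox1. Tubb3 and Ncam1 were also lower in both knockout libraries and Map2 was higher, and none of these passed. The 8 trophoblast markers summed to 89.1 and 89.7 CPM in the knockout, above the 67.0 and 72.5 CPM in wild type. Most of these sums was Tfap2c, at 70.7 and 71.9 CPM in the knockout and 49.8 and 55.2 CPM in wild type. Of 4 tested, 1 passed as higher, Tfap2c, which stem cells and germ cells also express. Gata3 and Krt18 were higher in both knockout libraries and Eomes was lower, and none of these passed. The part of these cell types in the levels of the imprinted genes was not tested. Of the 8 stem cell markers, Zfp42 was lower and Tdgf1 higher in the knockout. Zfp42 and the neural marker Sox1 lie on chromosome 8. There 52 of 681 tested genes were called lower (7.64%, against 3.45% of all tested genes) and 8 higher. The call of Tdgf1 ended without knockout library 2 or either wild-type library (highest limma adjusted p = 0.195).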

How the data were processed

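RNA from 2 Pml knockout and 2 wild-type samples was analysed; the chromatin samples were not. The submitters' processing notes name cutadapt, TopHat, edgeR and the mm10 build; tool versions, annotation, strand and the handling of shared reads are not stated there. CPM values, as deposited, add up to 1000000 in each library. For each gene the authors also deposited a p-value with its false discovery rate, a log2 fold change and an average log2 CPM. CPM values were whole multiples of the value of 1 read, and 100% gave whole reads within 0.001 reads, for 31384794 to 44130093 reads per library.

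Using R 4.3.3 and limma 3.58.1, a limma-trend fit with a genotype term was run on log2(CPM + 1) of genes averaging 1 CPM or more, adjusted over all tested genes. Whole reads were also tested with edgeR 4.0.16 (quasi-likelihood, 14782 genes, 620 called, 596 of them shared with limma) and DESeq2 1.42.0. The limma step was checked on simulated counts. Libraries of a genotype differed by more than counting noise (chi-square per degree of freedom 7.05 in the knockout and 5.48 in wild type), so none was treated as a repeat deposit of another; this does not show that they are separate cultures.

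Gene positions came from RefSeq (GRCm38.p6); 23204 symbols matched directly, 1096 by an older symbol and 121 not. The imprinted genes and all lists were chosen with earlier results of these data known. Named genes were all 10 imprinted genes, every tested gene beside them, up to 6 called genes per list by smallest adjusted p, and the 5 genes most like Plagl1. Alternatives were other pseudocounts, filters and scaling, the count tests, a replicate term, and leaving out each library.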

Additional observations from a re-analysis of the deposited data

How the results depend on the processing

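All 8 calls among the imprinted genes kept their direction and stayed past the threshold under each alternative that tested them (highest adjusted p = 0.0449, for Nnat by limma with no filter), and all 108 recomputed fold changes of the 10 genes were below 0. Those signs were nearly fixed in advance, since the alternatives reused the same 4 libraries. In these, the genotypes did not overlap for any of the 10 genes. With a minimum mean of 5 CPM, 6 of the imprinted genes were tested and 6 called, and Peg13, Nnat, Sgce and Usp29 were not tested. Sgce and Usp29 passed under none. Calls over all genes numbered 687, 298 with no filter, 1198 in the fit with a replicate block, and 423 to 879 when 1 library was left out, lowest without knockout library 2, 446 without wild-type library 1 and highest without wild-type library 2. Leaving 1 out leaves its genotype with a lone library, assumed to vary like the other genotype. The sample titles give same-numbered libraries only a number in common. Their deviations correlated weakly (0.12 over 12710 genes), which does not settle if they were paired. The fit with the block called 8 imprinted genes. It also called 1 gene beside the loci, against 0 in the main test and 0 to 1 with 1 library left out. Keepers of imprints passed in 0 cases with no filter and in 0 to 4 with 1 library left out, so those 4 calls rest on the library set. DESeq2 called 5 maternally expressed genes, against 8. Other paternally expressed genes gave 4 to 7 calls with 1 library left out. Usp29 and Peg13 had the fewest reads, 55 and 26 over both knockout libraries, and 2 libraries per genotype limit the precision of every gene. The cause of these changes was not tested.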
